A study of Mus musculus with 12 samples.

Results

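The genes described here are 38 antiviral interferon-stimulated genes, a list fixed by symbol and chosen with earlier results of these data known. It covers RNA-binding effectors, RNA sensors, antiviral enzymes and their regulators. All 38 symbols were found among the 21899 genes of the deposited count table, and all 38 were among the 11656 genes that passed the filter on low counts. Messenger RNA was measured by RNA sequencing in primary bone marrow-derived macrophages, which are macrophages grown out of marrow cells in culture, from wild-type mice. The 4 groups, of 3 libraries each, were untreated cells (control) and cells treated with CS-PA/CNP, with PgLPS, or with the 2 agents together. The labels give the treatments by these abbreviations only, with no dose, duration or order of addition and no age of the animals, and nothing says that the 3 libraries of a group came from separate animals or cultures. The p-values below therefore measure the spread between these libraries, which may be technical.

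Type I interferon is released by macrophages that sense microbial products, and it acts back on the same cells and their neighbours through the receptor IFNAR1-IFNAR2. The receptor's kinases JAK1 and TYK2 phosphorylate STAT proteins, which join IRF9 in the complex ISGF3 and bind the interferon-stimulated response element (ISRE) in the promoters of target genes. The products of those genes bind or degrade foreign RNA, block translation, deplete nucleotides, trap budding virus or tune the response itself. In macrophages, lipopolysaccharide can start this route through the adaptor TRIF, which leads to interferon beta, while the adaptor MyD88 leads mainly to NF-kB and inflammatory cytokines.

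The 12 libraries held 14992707 to 20082900 reads, and the 38 genes together took 0.147% to 0.160% of them in untreated cells, 0.154% to 0.167% under CS-PA/CNP, 1.77% to 1.85% under PgLPS and 1.74% to 1.82% under both agents. The 8 macrophage markers summed to 20000 to 31700 CPM, where CPM is the count per 1000000 reads after scaling for library composition. Markers of other cells were lower: the 4 T and NK cell markers summed to at most 0.839 CPM, and the 5 markers of plasmacytoid dendritic cells, which make much interferon, to 0.56 to 1.01 CPM in control, 2.86 to 4.04 CPM with PgLPS and 1.43 to 2.43 CPM with both agents, with Klk1 at 0 in every library. Among the plasmacytoid markers the mean of Ccr9 was 0.318 CPM in control and 2.69 CPM with PgLPS. Siglech (0.034 and 0.051), Pacsin1 (0.087 and 0.194) and Spib (0.397 and 0.363) were low in both groups. The 6 neutrophil markers summed to 79 to 98.7 CPM in control, 156 to 178 CPM with PgLPS and 124 to 138 CPM with both agents. The 6 stromal markers summed to 5.88 to 50.6 CPM in the PgLPS libraries against 2.18 to 4.62 CPM with both agents and 0.472 to 2.67 CPM in control, and the part of any of these cells in the results below was not tested. Libraries of a group also differed by gene length. In PgLPS library 2 the 9 members shorter than 2000 bases lay at a median of 0.14 log2 units above their group mean, and in PgLPS library 1 at 0.11 below it (−0.11).

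In 30 of the 38 genes a RefSeq promoter window was at hand, running from 250 bases before to 50 bases after a transcription start (GRCm38.p6). The core of the ISRE, searched as GAAA, any 2 bases, then GAAA on either strand, lay in a window of 14 of these 30 genes (46.7%). The same letters lay in a window of 3.99% of all RefSeq genes with a window, 4.02% of the tested genes, and 11.5% of the tested genes that PgLPS raised at least 2-fold. In 10 of the 14 genes a core lay wholly before the start. These were Ifit1, Ifit3, Ifit3b, Isg15, Oas1a, Oas1g, Oas3, Rsad2, Bst2 and Phf11b. The excerpts are shown because these genes rose together with PgLPS and because 2 pairs of near copies among them can be compared. All excerpts lie before the annotated start and do not bear on how reads were assigned. Each reads 5′ to 3′ on the gene's strand, with the core or its reverse complement in capitals.
Ifit1, chr19:34640770-34640809, plus strand: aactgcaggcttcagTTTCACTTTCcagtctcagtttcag
Ifit1, chr19:34640789-34640828, plus strand: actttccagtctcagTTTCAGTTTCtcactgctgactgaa
Ifit3, chr19:34583358-34583397, plus strand: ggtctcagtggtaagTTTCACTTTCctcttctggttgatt
Ifit3b, chr19:34607754-34607793, plus strand: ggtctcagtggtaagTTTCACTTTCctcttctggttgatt
Isg15, chr4:156200866-156200905, minus strand: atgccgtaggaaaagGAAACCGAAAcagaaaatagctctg
Oas1a, chr5:120907526-120907560, minus strand: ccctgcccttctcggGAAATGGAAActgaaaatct
Oas1g, chr5:120887614-120887646, minus strand: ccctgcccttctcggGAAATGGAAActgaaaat
Rsad2, chr12:26456548-26456587, minus strand: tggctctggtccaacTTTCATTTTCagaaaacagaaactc
Phf11b, chr14:59341356-59341395, minus strand: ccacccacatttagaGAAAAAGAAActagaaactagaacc

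Ifit1 held 2 cores, 104 to 95 and 85 to 76 bases before its start. The excerpts of Ifit3 and Ifit3b were identical. Both genes held 2 cores, of which the one shown lay 156 to 147 bases before the start in Ifit3 and 188 to 179 bases before it in Ifit3b. Oas1a and Oas1g differed in these excerpts only in how far the annotated start lay from the core in capitals, at 20 and 18 bases before the start, and a second core overlapped it in both. Isg15 held 3 overlapping cores within 78 to 57 bases before its start. In Ddx58, Ifih1, Eif2ak2 and Ifitm3 the match overlapped or followed the start and is not shown. The gamma-activated site, searched as TTC, any 3 bases, then GAA on either strand, lay in a window of 8 members (26.7%). It lay in 9.55% of all RefSeq genes with a window and 11.6% of the tested genes that PgLPS raised at least 2-fold. The NF-kB consensus lay in 3 members (10%), namely Oasl1, Zc3hav1 and Bst2. The shares were 5.14% of all RefSeq genes with a window, 6.25% of the tested genes and 10.2% of those raised at least 2-fold, near that of the members. A match is a stretch of letters and not a measured binding site, and a window without one says nothing of the factor.

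PgLPS set against control shows how strongly the cells took up this antiviral state. Every one of the 38 genes was higher with PgLPS, with no overlap between the 3 libraries of each group (66.4% of all tested genes had none), a median log2 fold change of 3.89 and a range of 1.42 to 8.40. Of all tested genes 32.2% were called higher and 31.6% lower at an adjusted p under 0.05 (edgeR, Benjamini-Hochberg, as for every adjusted p below), with a median of −0.00365. All 38 were called higher by edgeR, at an unadjusted p under 0.05 and by DESeq2, so none could be called lower. The list was chosen with earlier results of these data known, so this count is a description and not a test of the list. In bulk RNA, fewer cells of a kind and less messenger per cell cannot be told apart, and this holds for every value given here. The heat map of levels shows the step between the libraries without and with PgLPS in each row.

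**Figure D1:**
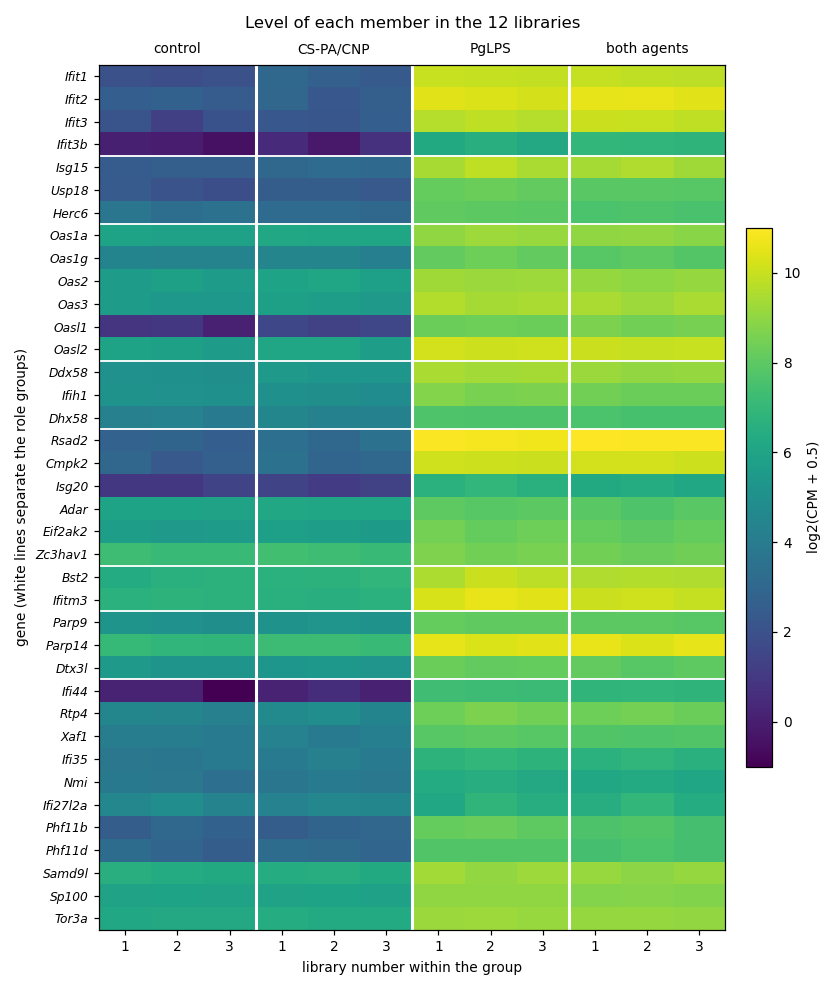
Level of each of the 38 genes (rows, grouped by role with white lines between groups) in the 12 libraries (columns, by group and library number), as log2 of CPM plus 0.5 on the colour scale. In every row the 6 libraries with PgLPS are above the 6 without it, and the PgLPS and both-agents libraries are close to each other.

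The largest rises were in genes that control cells barely used. Ifi44 (ENSMUSG00000028037, chromosome 3), which encodes an interferon-induced cytoplasmic protein, stood at 0.629, 0.654 and 0 CPM in the control libraries and 159, 149 and 144 CPM with PgLPS. Its log2 fold change of 8.40 ± 0.21 (SE, edgeR adjusted p = 4.2e-17) rests on a control group in which 1 library had no read. Ifit1 (ENSMUSG00000034459, chromosome 19), which binds foreign 5′ ends of RNA and blocks their translation, went from 3.46, 3.07 and 3.47 CPM in control to 1020, 990 and 952 CPM with PgLPS, a log2 fold change of 8.21 ± 0.11 (edgeR adjusted p = 1.1e-20). Its 3 control libraries lay close together and far below the 3 PgLPS libraries. Rsad2 (ENSMUSG00000020641, chromosome 12) encodes viperin, which makes a chain-terminating nucleotide. It stood at 6.24, 6.79 and 5.54 CPM in control and 1942, 1833 and 1718 CPM with PgLPS (8.20 ± 0.10, edgeR adjusted p = 5.1e-21), the highest CPM of the 38 genes with PgLPS. Oasl1 (ENSMUSG00000041827, chromosome 5), an OAS-like protein without synthetase activity that restrains translation of IRF7, had 1.31, 1.46 and 0.56 CPM in control and 317, 332 and 321 CPM with PgLPS (8.16 ± 0.14, edgeR adjusted p = 1.2e-19).

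The smallest rises were in Zc3hav1, Ifi27l2a and Adar. Zc3hav1 (ENSMUSG00000029826, chromosome 6), the zinc-finger antiviral protein that marks CpG-rich RNA for decay, stood at 156, 136 and 138 CPM in control and 405.6, 352.5 and 387.4 CPM with PgLPS, a log2 fold change of 1.42 ± 0.08 (edgeR adjusted p = 7.6e-12). Ifi27l2a (ENSMUSG00000079017, chromosome 12), a small interferon-induced membrane protein, had 23.4, 29.4 and 20.2 CPM in control and 71.4, 115 and 87.4 CPM with PgLPS (1.90 ± 0.17). Its PgLPS libraries spread more widely than those of most members, and it is also the shortest member at 463 bases. Adar (ENSMUSG00000027951, chromosome 3), which deaminates adenosine in double-stranded RNA, stood at 61.7, 62.2 and 59.3 CPM in control and 263, 237 and 251 CPM with PgLPS (2.03 ± 0.07).

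By role, the 4 IFIT genes rose by 7.64 to 8.21 on the log2 scale. The ISG15 system, a ubiquitin-like modifier with its ligase HERC6 and its protease USP18, rose by 4.54 (Herc6) to 7.13 (Isg15). The 6 OAS family genes, which make 2′-5′ oligoadenylate to activate RNase L or are inactive relatives, rose by 3.26 (Oas1a) to 8.16 (Oasl1). The RNA sensors were raised by 4.39 ± 0.07 in Ddx58 (RIG-I), 3.62 ± 0.08 in Ifih1 (MDA5) and 3.52 ± 0.09 in Dhx58 (LGP2, which modulates the other two). Per length, as CPM per kilobase of gene, the highest members with PgLPS were the membrane restriction factor genes and the modifier. Ifitm3, which blocks fusion of virus with endosomes, was at 2081 ± 209 CPM per kilobase (SD, n = 3), Isg15 at 1092 ± 188 and Bst2, the tether of budding virus, at 988 ± 173. The values of Isg15 and Bst2 differed by less than their SD. Herc6 (27.3 ± 1.51) and Ifi44 (24.6 ± 1.2) were the lowest. In control, Ifitm3 (154 ± 6.19) and Bst2 (105 ± 11.5) were already the highest, while 12 members lay under 2 CPM per kilobase and Isg15 ranked 16 of 38 at 7.81 ± 0.513.

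Both agents set against PgLPS show whether CS-PA/CNP lowered this programme. Of the 38 genes 1 was higher (Ifit3b), 10 were lower and 27 were not called, against 9.42% of all tested genes called higher and 10% called lower. The changes were small. The median log2 fold change was −0.17 (−0.00512 over all tested genes), none reached 2-fold, 32 members differed by less than 1.25-fold, and the largest change was 1.43-fold. In 23 members the 3 libraries of one group did not overlap those of the other, against 31.4% of all tested genes, and 30 of the 38 had a negative estimate, against 51% of all tested genes.

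**Figure D2:**
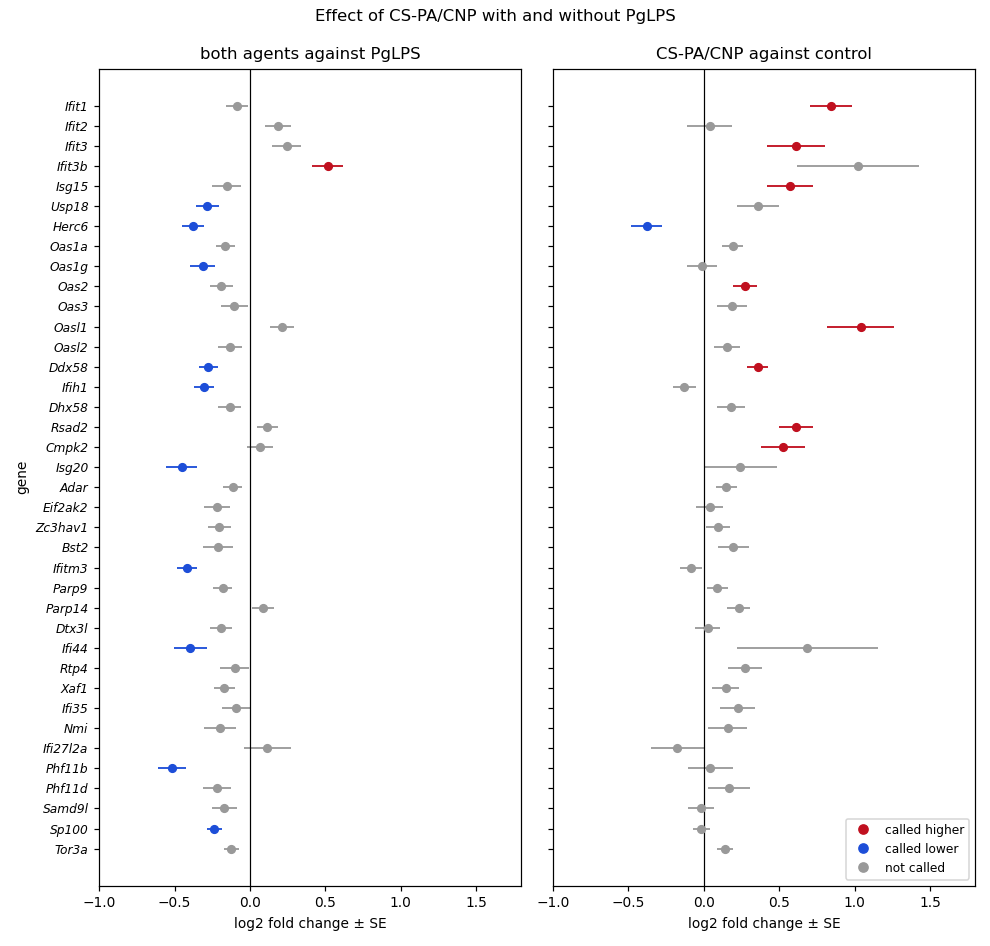
Log2 fold change of both agents against PgLPS (left) and of CS-PA/CNP against control (right) for the 38 genes in the same order, with bars of 1 SE from the edgeR fit over 3 libraries per group. Red marks genes called higher, blue genes called lower and grey genes not called. On the left most points lie between −0.5 and 0 with Ifit3b alone called higher, and on the right the called points lie to the right of 0 except for Herc6.

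The IFIT group, whose members bind RNA that lacks host marks, had the highest values of all roles. Ifit3b (ENSMUSG00000062488, chromosome 19) went from 78.2, 92.7 and 75.7 CPM with PgLPS to 122, 120.1 and 111 CPM with both agents, a rise of 0.52 ± 0.10 on the log2 scale (edgeR adjusted p = 0.00124). All 3 libraries with both agents were above all 3 with PgLPS, and the call held in each of 19 alternative settings. Its near copy Ifit3 (ENSMUSG00000074896, chromosome 19) stood at 818, 922 and 802 CPM with PgLPS and 1062, 1035 and 913 CPM with both (0.24 ± 0.09, edgeR adjusted p = 0.0824), with 1 library overlapping. Reads of the pair cannot be fully separated, because 41.1% of the 75-base stretches in the Ifit3 transcripts and 35.7% of those in Ifit3b occur in the other gene. Summed, they gave 929 ± 74.3 CPM with PgLPS and 1121 ± 85.5 CPM with both (SD, n = 3), a log2 ratio of 0.27. Ifit2 (0.19 ± 0.08) and Ifit1 (−0.08 ± 0.07) were not called. The 3 Ifit1 libraries with both agents, at 976, 926 and 893 CPM, overlapped those with PgLPS.

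In the ISG15 system, Usp18 fell by 0.28 ± 0.08 (edgeR adjusted p = 0.0113) from 294 ± 15.7 to 242 ± 4.81 CPM (SD, n = 3). Herc6 (ENSMUSG00000029798, chromosome 6), the main ISG15 ligase of mice, went from 269, 251 and 241 CPM with PgLPS to 194, 206 and 186 CPM with both agents (−0.37 ± 0.07, edgeR adjusted p = 0.000965). The groups did not overlap. In the Herc6 transcripts 22.4% of 75-base stretches also occur in the gene model Gm45193, so its count is less certain. Isg15 (ENSMUSG00000035692, chromosome 4) stood at 680, 920 and 703 CPM with PgLPS and 677, 767 and 624 CPM with both (−0.16 ± 0.09, edgeR adjusted p = 0.283), and the groups overlapped.

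Of the OAS family only Oas1g was called, at −0.31 ± 0.08 (edgeR adjusted p = 0.0112), and not without PgLPS library 2 or without both-agents library 3, where the adjusted p reached at most 0.0681. Oas1a lay at −0.16 ± 0.06 and was not called. The pair shares 47.6% of the 75-base stretches of Oas1a and 44.6% of those of Oas1g, and the summed level was 861 ± 72.2 CPM with PgLPS and 743 ± 50 CPM with both, a log2 ratio of −0.21. Oas2 (−0.19), Oas3 (−0.10) and Oasl2 (−0.13) had small negative estimates that missed the threshold. Oasl1 was the exception in sign. Its PgLPS libraries had 317, 332 and 321 CPM and its both-agents libraries 395, 352 and 376 CPM (0.21 ± 0.08, edgeR adjusted p = 0.0697). Its groups did not overlap. Oasl1 was called higher on library totals, by DESeq2, without the filter on low counts and with only these 2 groups in the fit. The same held with the offset on gene length and the replicate block, both described below, and without control library 3 or both-agents library 2.

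Among the RNA sensors, Ddx58 (ENSMUSG00000040296, chromosome 4) went from 709.9, 640.4 and 672 CPM with PgLPS to 584, 532 and 554 CPM with both, a fall of 0.28 ± 0.06 on the log2 scale (edgeR adjusted p = 0.0036). Ifih1 (ENSMUSG00000026896, chromosome 2) fell from 436, 388 and 399.9 to 354, 319 and 317 CPM (−0.31 ± 0.07, edgeR adjusted p = 0.0023). Dhx58 (ENSMUSG00000017830, chromosome 11) stood at 208, 203 and 200.2 CPM with PgLPS and 193, 182 and 182 CPM with both (−0.13 ± 0.07, edgeR adjusted p = 0.237). In all 3 sensor genes every library with both agents lay below every PgLPS library, although Dhx58 was not called.

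Of the RNA and nucleotide enzymes, Isg20 (ENSMUSG00000039236, chromosome 7), an exonuclease that degrades RNA, went from 102, 124 and 97.2 CPM with PgLPS to 78, 87.1 and 71 CPM with both (−0.45 ± 0.10, edgeR adjusted p = 0.00382). The neighbouring genes Rsad2 and Cmpk2, whose products work together in making an antiviral nucleotide, differed little: Rsad2 had 2054, 1958 and 1942 CPM with both agents (0.12 ± 0.07) and Cmpk2 had 1091 ± 42.2 CPM with PgLPS and 1143 ± 44.9 CPM with both (0.07 ± 0.09). Adar (−0.11), Eif2ak2 (−0.22), which encodes the translation-blocking kinase PKR, and Zc3hav1 (−0.20) were not called. The levels of Zc3hav1 with both agents were 351.6, 302 and 341.8 CPM, of which the highest was just under the lowest PgLPS library, and those of Adar, at 241, 209.7 and 243 CPM, overlapped PgLPS.

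Ifitm3 (ENSMUSG00000025492, chromosome 7) fell from 1259, 1539 and 1436 CPM with PgLPS to 1049, 1122 and 994 CPM with both (−0.42 ± 0.07, edgeR adjusted p = 0.000148), the smallest adjusted p among the 38 genes in this comparison. Its groups did not overlap although, at 678 bases, it is among the members that varied most with gene length between PgLPS libraries. The other membrane restriction factor, Bst2, lay at −0.21 ± 0.10 and was not called, at a level of 892 ± 156 CPM beside 769 ± 9.13 CPM (PgLPS, then both agents). The genes of ADP-ribosylation Parp9 (−0.18) and Parp14 (0.09) and the gene of the PARP9 partner and ubiquitin ligase DTX3L (−0.19) were not called. Parp9 missed the threshold narrowly (edgeR adjusted p = 0.0543).

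Among the 11 other induced genes, Phf11b (ENSMUSG00000091649, chromosome 14), which encodes a PHD finger protein, had the largest fall of all members. It went from 284, 303 and 259.7 CPM with PgLPS to 200.1, 214 and 176 CPM with both (−0.52 ± 0.09, edgeR adjusted p = 0.000432), with no overlap. In the Phf11b transcripts 26.8% of 75-base stretches occur in other genes, with 11.1% in Phf11c, the gene that shares most. Its relative Phf11d lay at −0.22 ± 0.09 and was not called. Ifi44 went from 159, 149 and 144 to 114, 117 and 112 CPM (−0.39 ± 0.11, edgeR adjusted p = 0.017), a call that was lost without PgLPS library 1, both-agents library 1 or both-agents library 3, with an adjusted p of at most 0.0575. Sp100, which encodes a scaffold of PML nuclear bodies, fell by 0.24 ± 0.05 from 518 ± 2.17 to 439.7 ± 11.3 CPM (edgeR adjusted p = 0.0023), the most even of these genes across PgLPS libraries. The other 8 were not called: the torsin gene Tor3a (−0.12), the poxvirus restriction factor gene Samd9l (−0.17), Xaf1, an antagonist of the apoptosis inhibitor XIAP (−0.17), the partners Nmi (−0.20) and Ifi35 (−0.09), Rtp4 (−0.10), Phf11d and Ifi27l2a (0.11, with 88.2, 123 and 85.1 CPM with both agents).

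**Figure D3:**
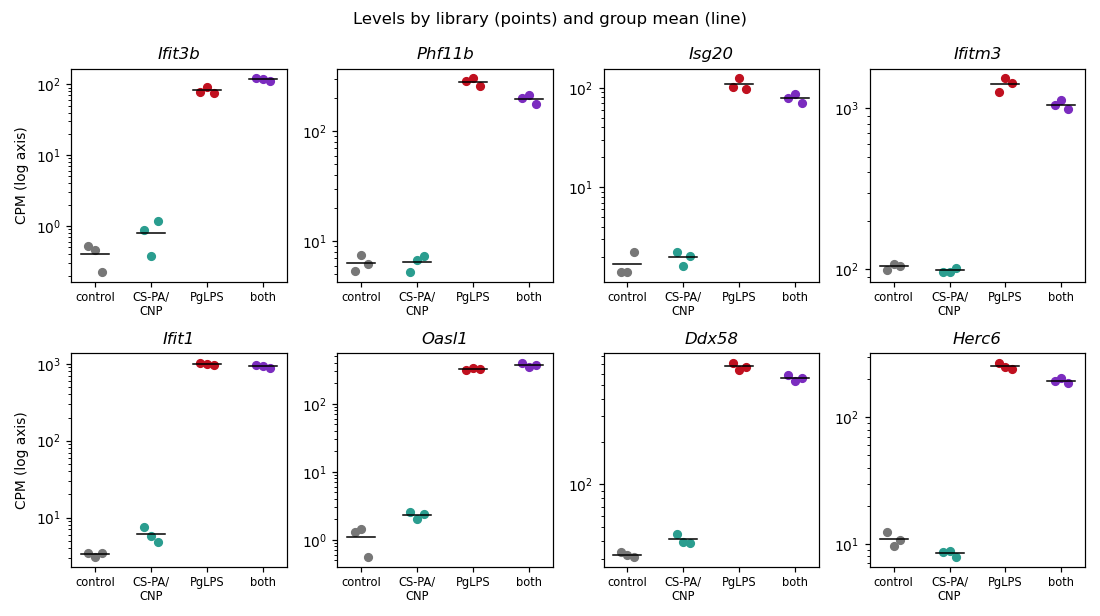
CPM on a log axis in each library (points) and the mean of each group (line) for 8 of the genes, with control in grey, CS-PA/CNP in teal, PgLPS in red and both agents in purple. Ifit3b is higher with both agents than with PgLPS, Phf11b, Isg20, Ifitm3, Ddx58 and Herc6 are lower, and Ifit1, Oasl1 and Ddx58 are higher with CS-PA/CNP than in control.

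How many of these small differences were called depended on how the spread between libraries was modelled. Within a group, the deviation of the 38 genes from their group mean moved with gene length, with Spearman correlations of 0.80, −0.88 and 0.40 in PgLPS libraries 1 to 3 and 0.50, −0.69 and 0.71 with both agents (n = 38 genes of 1 library each, a description). With an offset that removes the within-group trend on gene length, added after the data were seen, 19 members were called lower and 3 higher. The offset was fitted to each library's deviation from its group mean, and no degrees of freedom were charged for it. It takes out scatter within groups and so tends to raise the number of calls, which is no added support for them. The share of all tested genes called with it was not counted. Across members the log2 fold change itself had a Spearman correlation of −0.13 with length.

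**Figure D4:**
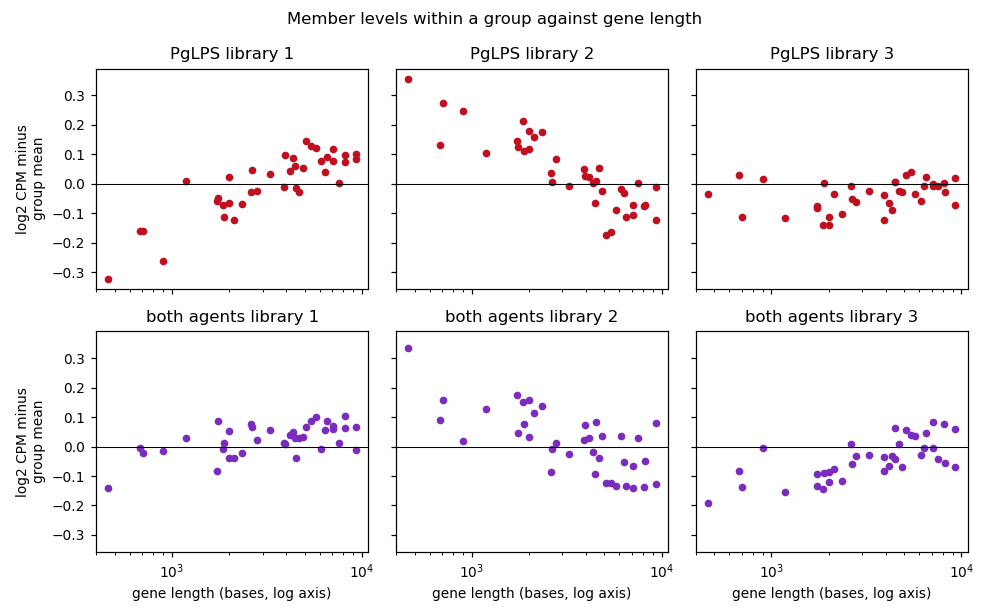
Log2 CPM of each of the 38 genes minus its group mean (vertical axis) against gene length in bases (log axis) in the 3 PgLPS libraries (red) and the 3 libraries with both agents (purple). Short genes are high in PgLPS library 2 and in both-agents library 2 and low in PgLPS library 1.

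Since all 38 genes rose with PgLPS, the share of the rise that was kept with both agents could be given for each, as the CPM with both agents minus control over the CPM with PgLPS minus control. The median share was 87.5%, and it was 88.8%, 87.4% and 87.4% in the 3 both-agents libraries taken singly. The lowest shares were in Phf11b (69.1% ± 5.1, SE), Isg20 (72.5% ± 7.2) and Ifitm3 (72.8% ± 5.4), the only 3 under 75%. Just above that mark lay Ifi44 (76% ± 2.4) and Herc6 (76.1% ± 3.5). In 8 genes the share was over 100%: Ifit3b (143% ± 10), Ifit3 (118% ± 7.6), Oasl1 (116% ± 4.1), Ifit2 (114% ± 6.2), Ifi27l2a (111% ± 28), Rsad2 (108% ± 4.3), Parp14 (107% ± 7.3) and Cmpk2 (105% ± 3.4). Of these Ifi27l2a and Parp14 lay within their SE of 100%. Among the 8 only Ifit3b was called higher with both agents against PgLPS. These 8 are 21.1% of the members. The share was over 100% in 22.3% of all genes called higher with PgLPS. It was over 100% in 12.2% of those raised at least 2-fold, as all 38 members were. By role the median was 116% for the IFIT genes, 89.5% for the OAS family, 86.7% for the RNA and nucleotide enzymes, 86.5% for the PARP and DTX3L genes, 82.0% for the ISG15 system, 81.6% for the sensors, 78.7% for the 2 membrane factors and 87.0% for the rest.

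**Figure D5:**
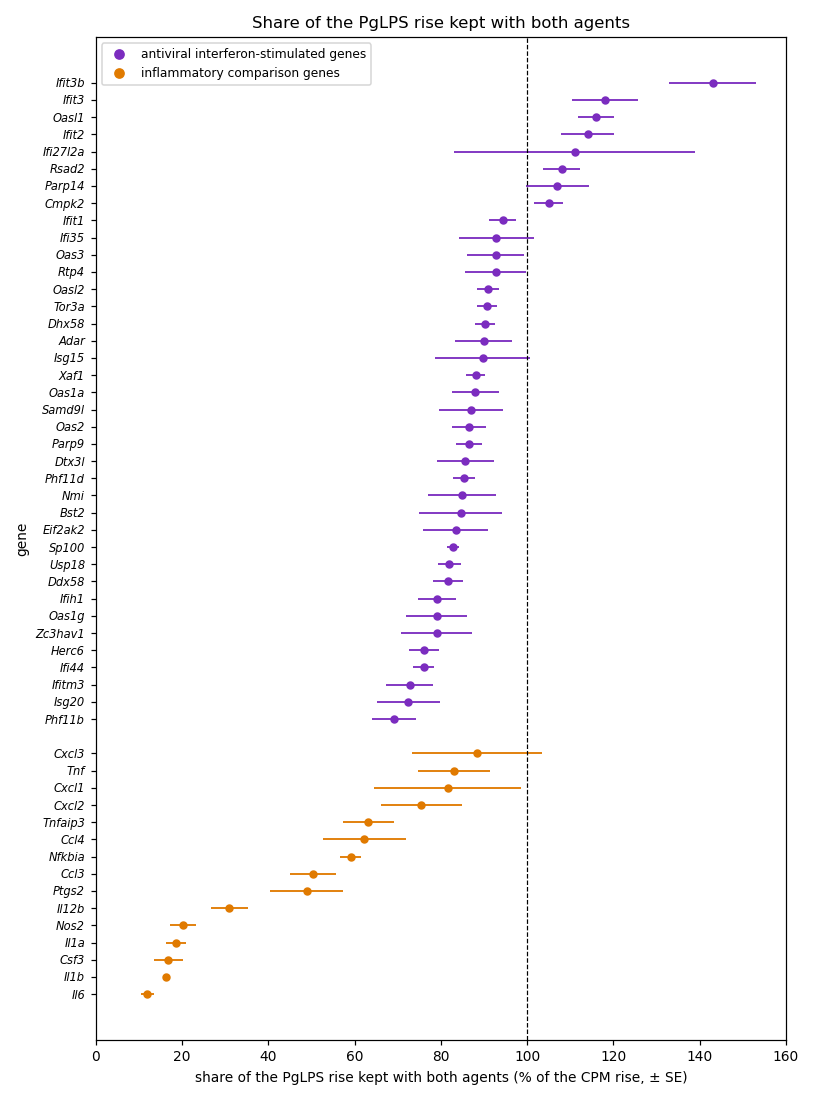
Share of the PgLPS rise in CPM that was kept with both agents, in percent with bars of 1 SE, for the 38 antiviral genes (purple) and for the 15 inflammatory comparison genes that rose with PgLPS (orange), with a dashed line at 100%. The antiviral genes lie between 69.1% and 143%, and the inflammatory genes between 12% and 88.4%.

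The same share was lower in genes driven mainly by NF-kB. Of 16 such genes listed for comparison, 15 were tested and called higher with PgLPS, and their median share was 50.3%, with 11 of the 15 under 75% and none over 100%. Il1b, the interleukin-1 beta gene, went from 2948, 3151 and 3092 CPM with PgLPS to 494, 474 and 528 CPM with both (−2.62 ± 0.12, edgeR adjusted p = 5.0e-11), a share of 16.3%. Il6 went from 50.6, 41.4 and 46.1 to 6.25, 4.28 and 6.13 CPM (−3.06 ± 0.16, edgeR adjusted p = 1.5e-10), a share of 12%, the lowest of the list. Both shares were below those of all 38 antiviral genes. Tnf was nearer to them: its PgLPS libraries had 213, 269 and 226 CPM and its both-agents libraries 189, 205 and 216 CPM (−0.22 ± 0.08, edgeR adjusted p = 0.0582, not called), a share of 83%. Nearer too were Cxcl3 (88.4%), Cxcl1 (81.6%) and Cxcl2 (75.5%), of which only Cxcl2 was called lower with both agents against PgLPS. Over all 3750 genes called higher with PgLPS the median was 74.0%, with 51.2% of them under 75% against 7.89% of the antiviral genes, and over the 1372 raised at least 2-fold it was 68.5%. The share can also be taken on the log2 scale, as the log2 fold change with both agents over that with PgLPS, each against control. There the medians lay closer, at 95.4% for the antiviral genes and 79.4% for the inflammatory list. They were 82.2% over all genes called higher with PgLPS and 82.8% over those raised at least 2-fold. The inflammatory list was chosen with these results known, and the difference between the lists was described and not tested.

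CS-PA/CNP without PgLPS, set against control, shows what the agent did on its own. Of the 38 genes 8 were higher, 1 was lower and 29 were not called, against 6.67% of all tested genes called higher and 5.61% called lower. The median log2 fold change of the members was 0.17 (2.38e-05 over all tested genes), and 12 of the 38 members had no overlap between groups, which is near the 31.4% of all tested genes. Oasl1 rose from 1.31, 1.46 and 0.56 CPM in control to 2.54, 2 and 2.41 CPM (1.04 ± 0.22, edgeR adjusted p = 0.00357). Ifit1 rose from 3.46, 3.07 and 3.47 to 7.46, 5.83 and 4.83 CPM (0.84 ± 0.14, edgeR adjusted p = 0.000349). Both remained far below their levels with PgLPS. Ifit3 went from 3.83, 1.91 and 3.52 to 4.31, 4.15 and 5.5 CPM (0.61 ± 0.19, edgeR adjusted p = 0.0456), close to the threshold. The other 5 that rose were Rsad2 (0.61 ± 0.11), Isg15 (0.57 ± 0.15), Cmpk2 (0.53 ± 0.14), Ddx58 (0.36 ± 0.07) and Oas2 (0.27 ± 0.08). In Cmpk2 and Oas2 the libraries of the groups overlapped. Ddx58 stood at 33.6, 31.8 and 30.9 CPM in control and 45.1, 39.7 and 38.8 CPM with CS-PA/CNP, and Isg15 at 5.08, 5.63 and 5.76 and 7.62, 8.74 and 8.13 CPM, both without overlap. The other 2 sensors were not called, with Ifih1 at 31.6, 31.4 and 28.1 CPM against 35, 32.8 and 31.7 CPM in control (−0.13) and Dhx58 at 22.3, 19.1 and 19 CPM against 18.6, 19.4 and 15.2 CPM (0.18).

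Herc6 alone was lower with CS-PA/CNP, at 8.56, 8.79 and 7.87 CPM against 12.5, 9.55 and 10.7 CPM in control (−0.38 ± 0.10, edgeR adjusted p = 0.022), so that Usp18 (0.36, not called), Isg15 and Herc6 of the ISG15 system did not share a sign. Ifit3b had the second-highest estimate of all (1.02 ± 0.41) but few reads and was not called (edgeR adjusted p = 0.121). Ifit1, Oasl1, Rsad2 and Ddx58 were called in all 19 alternative settings. The other 5 calls were each lost in some settings: Ifit3 on library totals, in a fit of these 2 groups alone, and without control library 2 or 3, any CS-PA/CNP library, PgLPS library 3 or both-agents library 1 (adjusted p up to 0.256), Isg15 without control library 1 or 2 or CS-PA/CNP library 2 or 3 (up to 0.0988), Oas2 on library totals and without control library 1 or 3 or CS-PA/CNP library 1 or 2 (up to 0.207), Cmpk2 without control library 2 or 3 or CS-PA/CNP library 1 (up to 0.156), and Herc6 in the fit of 2 groups and without control library 1 or CS-PA/CNP library 3 (up to 0.138). The count of members called higher fell to 5 without control library 2, control library 3 or CS-PA/CNP library 1, and that of members called lower to 0 without control library 1 or CS-PA/CNP library 3.

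The interaction asks whether CS-PA/CNP acted differently with PgLPS than without it, as the first log2 fold change minus the second. Of the 38 genes 11 had a negative interaction past the threshold and none a positive one, against 8.34% of all tested genes below and 7.46% above. None was positive at an unadjusted p under 0.05 or by DESeq2 either. Among these 11 the most negative were Ifit1 (−0.93 ± 0.16, edgeR adjusted p = 0.000319), Oasl1 (−0.83 ± 0.24, edgeR adjusted p = 0.0213) and Isg15 (−0.73 ± 0.18, edgeR adjusted p = 0.00847). In each of these 3 the gene was higher with CS-PA/CNP alone and not called when CS-PA/CNP was present beside PgLPS. Ddx58 (−0.63 ± 0.10, edgeR adjusted p = 9.2e-05) was called in both, higher without PgLPS and lower with it. Usp18 (−0.64), Phf11b (−0.56) and Ifitm3 (−0.34) were called lower beside PgLPS and not called without it, and Rsad2 (−0.49), Oas2 (−0.46), Oas1a (−0.36) and Tor3a (−0.26) were the remaining 4. The test is on the log2 scale, and in CPM the sign differs for Oasl1 and Rsad2. The mean of Oasl1 rose from 1.11 to 2.32 CPM without PgLPS and from 323 to 375 CPM beside it. That of Rsad2 rose from 6.19 to 9.435 CPM and from 1831 to 1985 CPM. Neither rise beside PgLPS was called. In the other genes of the 11 the mean CPM was lower with both agents than with PgLPS. Ifi44 had the most negative estimate of all 38 (−1.08 ± 0.48) and was not called (edgeR adjusted p = 0.152), but was by DESeq2. Herc6 had an interaction of 0.00 ± 0.12, with a log2 fold change of −0.38 without PgLPS and −0.37 with it. Across the 38 genes the 2 effects, which come from different libraries, had a Spearman correlation of 0.42 and a Pearson correlation of 0.54, given as a description. The count of 11 fell to 7 without control library 3 or CS-PA/CNP library 1 and rose to 21 with the gene-length offset, under the limit of that offset given above.

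Set against untreated cells, all 38 genes were higher with both agents, with a median log2 fold change of 3.67, a range of 1.21 (Zc3hav1) to 8.37 (Oasl1) and no overlap in any of them (63.1% of all tested genes had none). Of all tested genes 29.7% were higher and 28.4% lower in that comparison, which shares its control libraries with the one of PgLPS. The order of the genes by CPM per kilobase changed little, with Ifitm3, Isg15, Bst2, Ifit3 and Rsad2 first in both groups. Phf11b ranked 10 with PgLPS and 11 with both agents, while Ifit3b moved from rank 35 to 24, with 41.1 ± 4.6 and 58.8 ± 2.99 CPM per kilobase.

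Upstream of these genes, a list of 53 genes of interferon induction and signalling had 43 tested members. With PgLPS 33 of them rose and 3 fell, against 32.2% and 31.6% of all tested genes. With both agents against PgLPS 2 rose and 17 fell, against 9.42% and 10%, with a median of −0.16, near that of the antiviral genes. With CS-PA/CNP alone 10 rose and none fell by edgeR, against 6.67% and 5.61%. The interferon genes themselves were almost unread. Ifnb1 had 0 reads in the control libraries, 1 with CS-PA/CNP, 8 with PgLPS (4, 2 and 2) and 26 with both agents (11, 11 and 4). Against a floor of 3 reads over the control group, Ifnb1 was 3.36-fold higher with PgLPS and 10.4-fold higher with both. These ratios take the 8 and 26 reads as exact, so they are not lower bounds. The ratio of both agents to PgLPS was 3.1 with an exact 95% interval of 1.36 to 7.93. That interval covers counting error of the pooled reads alone and not the spread between libraries. PCR copies were also not told apart by molecular identifiers. An exact permutation test over libraries, 2-sided, gave p = 0.2, where 3 against 3 cannot go below 0.1. The 8 other listed interferon genes (Ifna1, Ifna2, Ifna4, Ifna5, Ifnab, Ifng, Ifnl2 and Ifnl3) had no read in any library.

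Of the genes of the receptor chains 3 of 4 tested fell with both agents against PgLPS, and of the kinases and STATs 4 of 6. Of all tested genes 10% were called lower in that comparison. With both agents against PgLPS, Ifnar1 fell by 0.37 ± 0.07, Ifnar2 by 0.60 ± 0.06 and Jak2, which serves the interferon gamma receptor, by 1.10 ± 0.08 on the log2 scale (edgeR adjusted p = 0.000922, 7.4e-07 and 1.5e-08). The ISGF3 genes Stat2 and Irf9 were not called. Stat2 (ENSMUSG00000040033, chromosome 10) went from 70.6, 69.3 and 65.4 CPM in control to 911, 809 and 819 CPM with PgLPS, and had 794, 725 and 777 CPM with both (−0.15 ± 0.07, edgeR adjusted p = 0.175). Irf9 (ENSMUSG00000002325, chromosome 14) lay at 58, 58.2 and 60.1 CPM in control, 139.6, 142 and 138 CPM with PgLPS and 139, 143 and 134 CPM with both (−0.01 ± 0.06, edgeR adjusted p = 0.925). For Irf9 the libraries of both groups overlapped, and for Stat2 all 3 with both agents lay under those with PgLPS.

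Irf7 (ENSMUSG00000025498, chromosome 7), which drives the second wave of interferon genes and is an interferon target itself, rose with PgLPS from 13.8, 13.9 and 14.7 to 1261, 1473 and 1307 CPM and fell to 1120, 1155 and 1067 CPM with both (−0.27 ± 0.06, edgeR adjusted p = 0.00382). It was also raised by CS-PA/CNP alone, to 16.9, 19.7 and 18.5 CPM (0.38 ± 0.08, edgeR adjusted p = 0.00457), as was the nucleic acid sensor gene Zbp1 (0.38 ± 0.11). The largest falls of the list were in brakes on STAT signalling: Socs1 went from 82.4 ± 6.24 CPM with PgLPS to 31 ± 0.844 CPM with both (−1.41 ± 0.13) and Socs3 from 882 ± 51.2 to 403 ± 15 CPM (−1.13 ± 0.08), while the 5 other brakes were not called. Among the receptors that sense lipopolysaccharide and bacterial lipoprotein, Cd14 (−1.12 ± 0.07) and Tlr2 (−1.01 ± 0.06) fell and Tlr4 (0.01 ± 0.10) was not called. The 2 list genes that rose were Irf5, from 290.5 ± 4.9 to 425 ± 5.09 CPM (0.55 ± 0.05), and Tlr9 (0.73 ± 0.17).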

How the data were processed

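All values start from 1 table of 21899 genes in which the authors deposited unnormalized whole counts of reads. The 12 FPKM columns beside them were not used. Tools named in the submitters' processing notes are DESeq 1.30.0, HTSeq 0.9.1, HISAT2 2.0.5 and cutadapt 1.15. The strandedness, genome build and annotation were not given in the sources used here. Overlapping and antisense genes may therefore share reads. Columns were read as control (C), CS-PA/CNP (M), PgLPS (L) and both (LM). Their library numbers could not be matched to the replicate numbers in the sample titles.

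Counts were tested with edgeR 4.0.16 (quasi-likelihood, TMM, filterByExpr, R 4.3.3) in 1 fit of all 12 libraries, with Benjamini-Hochberg adjustment over 11656 genes, a threshold of 0.05 and 2-sided tests. CPM are counts per 1000000 of library total times TMM factor, and levels are mean ± SD of 3 libraries. Errors of log2 fold changes are standard errors of that fit, and those of shares kept were propagated from the libraries. Libraries of a group differed by more than sampling noise (chi-square per gene 2.77 to 17.4). Alternatives were DESeq2 1.42.0, other scalings, no filter, 2 groups only, a replicate block, a gene-length offset and leaving out each library. The code was tested on simulated data. Shared sequence was counted in GENCODE transcripts, and promoter windows are from RefSeq. The 38 genes and all other lists were chosen with earlier results of these data known. Values in every library are given for members with the largest and smallest changes past the threshold in each comparison, the 3 sensors, and the listed pathway and comparison genes. One listed pathway gene is not reported here.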

Additional observations from a re-analysis of the deposited data

Results flagged for a closer look

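In 11 antiviral genes the effect of CS-PA/CNP on the log2 scale differed with and without PgLPS by a test of that difference (edgeR interaction, BH-adjusted p under 0.05), and in each of the 11 the difference was negative. Ifit1 (−0.93), Ddx58 (−0.63), Usp18 (−0.64), Isg15 (−0.73) and Oas2 (−0.46) passed in all 18 alternative settings. Oas1a (−0.36) was lost on library totals and without CS-PA/CNP library 1, with an adjusted p of at most 0.0543. Oasl1 (−0.83) and Rsad2 (−0.49) were lost without control library 3, CS-PA/CNP library 1 or CS-PA/CNP library 3, with at most 0.118 and 0.0912. Ifitm3 (−0.34) and Phf11b (−0.56) passed in 10 of 18 settings each, and both were lost on library totals and without control library 1 or 3, CS-PA/CNP library 3, PgLPS library 2, or both-agents library 1 or 3. Ifitm3 was also lost without PgLPS library 3 and Phf11b without CS-PA/CNP library 2, with adjusted p up to 0.0859 and 0.17. Tor3a (−0.26) passed in 11 of 18 and was lost on library totals, without the filter on low counts, and without any 1 control library, CS-PA/CNP library 1 or both-agents library 3, with an adjusted p of at most 0.128. Leaving out a library also lowers the number of libraries in the fit.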

How the results depend on the processing

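All 38 genes were called higher with PgLPS, and with both agents, against control in each alternative, and no called value reversed. Of 190 estimates (38 genes, 5 contrasts) 10 that were not called changed sign, among them Ifi27l2a with both agents against PgLPS (−0.0744 to 0.313). Against PgLPS, both agents gave 3 higher on library totals, 2 by DESeq2, 4 without the filter, 3 with only the 2 groups and 3 with the gene-length offset, and 19 lower with that offset, which was chosen after seeing the data. CS-PA/CNP against control gave 6 higher on library totals and 0 lower with only the 2 groups. Negative interactions numbered 7 on library totals, 18 by DESeq2 and 21 with the length offset. The median share kept was 90.8% on library totals and 95.4% on the log2 scale. Leaving out 1 library gave 1 to 2 higher and 8 to 13 lower against PgLPS, 5 to 10 higher and 0 to 1 lower for CS-PA/CNP, 7 to 14 negative interactions and a share of 86.9% to 89.2%. Same-numbered libraries correlated at −0.0906 to 0.325 in their deviations (median 0.103) and others at −0.263 to 0.144 (median −0.0624). Not every same-numbered pair was over 0.1, so the numbers were not taken to pair them. With the replicate block, 4 were higher and 21 lower against PgLPS and 26 interactions were negative. Outside the main fit and the other scalings, the share of all tested genes called was not counted. Whether more calls under a setting are particular to the 38 genes was therefore not tested. Scaling to library totals moved the median of all genes with PgLPS by −0.42 against about 0, and the share of rises among called genes from 50.5% to 21.8% (PgLPS), 51.1% to 21.3% (both against control), 48.4% to 61.4% (both against PgLPS), 54.3% to 41.9% (CS-PA/CNP) and 47.2% to 63.7% (interaction). The cause of these differences was not tested. Depth limits Ifnb1 and, in control, Ifi44 (25 reads over 3 libraries) and Ifit3b.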
